A study of Bos taurus with 31 samples.

Results

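The genes examined here were chosen as markers of the epithelium of the bile ducts. Their levels were followed in liver puncture biopsies of lactating German Holstein cows, 1 biopsy per cow, taken at the end of a feeding trial. The members were the rows of the raw count table whose gene symbol was KRT7, KRT19, EPCAM, CFTR, SPP1, SCTR or ANXA4. These are 7 of the 8 listed symbols and 7 of the 24616 genes in the table, and all 7 had reads in every cow. SOX9, the remaining listed gene, was not analysed here. The cows belonged to 4 feeding groups. CONHC (8 cows) and CONLC (8 cows) received a control ration with a high or a low concentrate feed proportion (CFP). GLYHC (8 cows) and GLYLC (7 cows) received rations of the same high or low CFP in which peas, wheat grain and straw carried residues of a glyphosate (GLY) herbicide. The control ration held background traces of GLY, so that the CON groups were not free of it. HC therefore means CONHC and GLYHC together, and LC means CONLC and GLYLC together. The trial asked whether GLY residues alter the liver and whether the nutrient supply, set by the CFP, modifies such an effect.

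Cholangiocytes are the epithelial cells that line the bile ducts, and they make up a small part of the liver beside the hepatocytes. They modify the bile that hepatocytes secrete by adding chloride, bicarbonate and water, a process that the gut hormone secretin stimulates. They are held in shape by keratins that hepatocytes mostly lack, carry primary cilia that sense flow, and are specified in development by Notch signals and by transcription factors such as SOX9. When the liver is injured, ducts can proliferate, a change known as the ductular reaction. Part of these markers is shared with other cells, since KRT19 and KRT7 are also made by mesothelium, SPP1 by macrophages, and EPCAM by other simple epithelia.

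Library depth ran from 11675775 to 36675542 gene-assigned reads per cow (median 19781078). The tissue label was matched by the hepatocyte product ALB, which had between 853300 and 2921000 normalised reads in every cow. GLYLC cow 912 stood apart. Its summed level of 8 intestinal epithelium genes was 7655 normalised reads against at most 2089 in any other cow, its smooth muscle list reached 32250 against at most 8026 elsewhere, and its ALB was the lowest. CONLC cow 103 had 43660 normalised reads over 10 genes of portal fibroblasts and stellate cells, against at most 9663 elsewhere. Results that rest on either cow are given with that fact. No sequencing run or date is given per cow, so that no batch could be examined.

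None of the 7 bile duct genes was called in any comparison between feeding groups (edgeR quasi-likelihood test, unadjusted p under 0.05 and Benjamini-Hochberg adjusted p under 0.1 over 15916 genes). Over all genes tested, the share called was 0% for CONHC versus CONLC, 0.201% for GLYHC versus GLYLC, 0% for GLYHC versus CONHC and 0.0628% for GLYLC versus CONLC. It was 1.45% for HC versus LC adjusted for treatment, 0% for GLY versus CON adjusted for CFP, 0% for the interaction of GLY with CFP and 0.773% for any difference among the 4 groups. At an unadjusted p under 0.05, the corresponding shares over all genes were 5.96%, 12.5%, 2.92%, 5.65%, 13.7%, 3.92%, 4.21% and 9.39%. Among the bile duct genes, 1 of 7 passed that looser threshold in 1 comparison, KRT19 in GLYHC versus GLYLC, where it was lower, as were 7.45% of all genes at that threshold (5.06% were higher). The ranges of the cows overlapped between the groups for each of the 7 genes in each of the 4 pairs of groups. In biopsies of whole liver, fewer bile duct cells and less RNA of a gene per bile duct cell cannot be told apart.

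**Figure D1:**
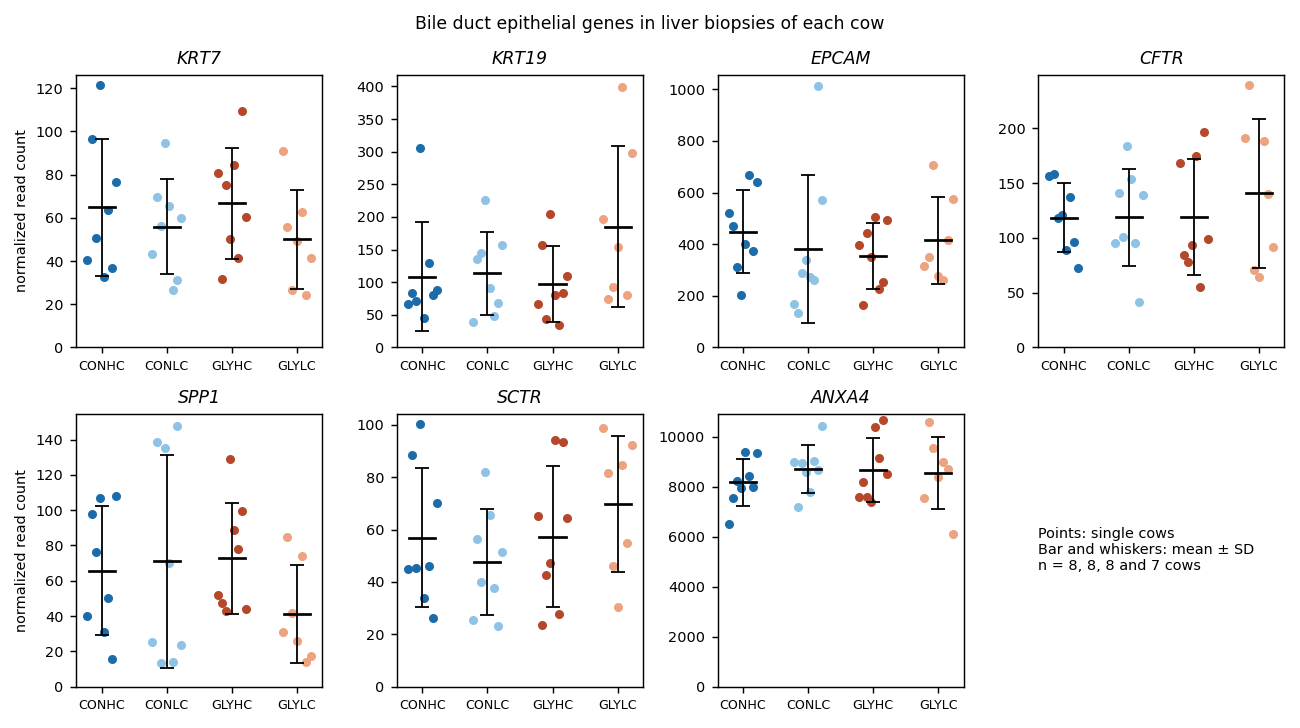
Normalised read counts (vertical axes, linear and starting at 0) of the 7 bile duct genes in the 31 cows by feeding group, with 1 point per cow and the mean ± SD as line and whiskers. The groups overlapped for every gene. Single high cows were seen for KRT19 in CONHC, with 1 cow at 305 and the next at 129.5, and for EPCAM in CONLC, with 1 cow at 1011 and the next at 571.

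KRT7 and KRT19 encode intermediate filament proteins of simple and ductal epithelium. KRT7 normalised read counts (reads scaled to a common library size) ran from 32.6 to 121.5 in CONHC (median 56.9), from 26.6 to 94.6 in CONLC (median 58.3), from 31.6 to 109.5 in GLYHC (median 67.9) and from 24.4 to 90.9 in GLYLC (median 49.2). Cows at both ends of the range were found in all 4 groups, with CONHC cow 133 highest and GLYLC cow 905 lowest. The means were 64.8 ± 31.6 (SD, n = 8), 55.9 ± 22.1 (SD, n = 8), 66.7 ± 25.6 (SD, n = 8) and 50.2 ± 22.9 (SD, n = 7) in the same order. HC against LC gave a log2 fold change of 0.31 (SE 0.21, 95% interval -0.12 to 0.74, edgeR adjusted p = 0.56), and GLY against CON gave -0.05 (SE 0.21, 95% interval -0.49 to 0.38, edgeR adjusted p = 1).

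KRT19 varied more. Its normalised read counts ran from 44.4 to 305 in CONHC (median 81.8), from 39.8 to 225 in CONLC (median 113), from 34.7 to 205 in GLYHC (median 82.3) and from 74.7 to 399.5 in GLYLC (median 153.5). GLYLC held the highest of the 31 cows, cow 544 at 399.5, and cow 912 at 298, and only CONHC cow 133 lay between them. In GLYHC, 3 of 8 cows lay below the lowest GLYLC cow and none lay above the highest. The log2 fold change of GLYHC against GLYLC was -0.90 (SE 0.43, 95% interval -1.77 to -0.03), with an unadjusted p of 0.0426 and an adjusted p of 0.379 in edgeR, which missed the threshold. Without cow 544 the log2 fold change was -0.59, and without cow 912 it was -0.74. In the control cows, CONHC against CONLC gave -0.07 (SE 0.42, 95% interval -0.92 to 0.79), and the interaction of GLY with CFP was -0.83 (SE 0.60, edgeR adjusted p = 0.999).

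Genes from several lists of other cell types were called in the same contrast. For GLYHC versus GLYLC, 3 of 5 smooth muscle genes and 1 of 10 portal fibroblast and stellate genes were called, all lower, and 0 of 4 mesothelium genes were called, with 3 of 4 below 0. Of 8 intestinal epithelium genes 2 were called, both lower, and of 7 epidermis genes 1 was called, higher, with 7 of 7 above 0. Over all genes, 0.163% were called lower, 0.0377% were called higher and 48.6% lay above 0. Without cow 912, 0 genes of each of these 5 lists were called, and 4 intestinal epithelium genes were left to test. Without cow 103 the smooth muscle count was 1. Leaving out 1 cow at a time gave 0 to 3 called smooth muscle genes, with 0 in 8 of 31 fits, 0 to 1 portal fibroblast and stellate genes, 0 to 4 intestinal epithelium genes and 0 to 2 epidermis genes. The summed smooth muscle level ran from 1184 to 4075 normalised reads in GLYHC and from 1818 to 32250 in GLYLC, where cow 912 was the highest and the next cow had 4397. The summed mesothelium level ran from 42.2 to 188 in GLYHC (median 63.0) and from 39.8 to 283 in GLYLC (median 92.98). The part of these cells in the KRT19 values was not tested.

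EPCAM encodes a membrane glycoprotein that holds epithelial cells together and that separates cholangiocytes from mature hepatocytes. Its normalised read counts ran from 204 to 669 in CONHC (median 436), from 133.5 to 1011 in CONLC (median 281), from 165 to 507 in GLYHC (median 373.5) and from 262.5 to 706 in GLYLC (median 349). In CONHC, 7 of 8 cows lay above the CONLC median, although CONLC cow 260 was the highest of all. CONHC against CONLC gave a log2 fold change of 0.23 (SE 0.32, 95% interval -0.43 to 0.89, edgeR adjusted p = 0.99). GLYHC against CONHC gave -0.34 (SE 0.32, 95% interval -1.001 to 0.32, edgeR adjusted p = 1). Over both treatments, HC against LC was 0.01 (SE 0.23, 95% interval -0.46 to 0.49).

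CFTR and SCTR belong to the secretory apparatus of the duct. SCTR is the receptor for secretin, and CFTR is the chloride channel that opens in response to the cAMP signal from that receptor. CFTR normalised read counts ran from 72.2 to 158 in CONHC (median 119), from 41.7 to 184 in CONLC (median 120), from 55.5 to 197 in GLYHC (median 96.1) and from 64.4 to 239 in GLYLC (median 140). The CONHC and CONLC means of CFTR were nearly the same at 118 ± 31.4 (SD, n = 8) and 119 ± 44.1 (SD, n = 8). GLYLC had 3 of 7 cows above the highest CONLC cow, with a log2 fold change of 0.24 (SE 0.29, 95% interval -0.36 to 0.84, edgeR adjusted p = 1).

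SCTR normalised read counts ran from 26.3 to 100.3 in CONHC (median 45.8), from 23.3 to 82.1 in CONLC (median 45.8), from 23.7 to 94.0 in GLYHC (median 55.9) and from 30.5 to 98.9 in GLYLC (median 81.7). As for CFTR, 3 of 7 GLYLC cows lay above every CONLC cow, and 6 of 7 lay above the CONLC median. The means were 69.9 ± 26.0 (SD, n = 7) in GLYLC and 47.7 ± 20.2 (SD, n = 8) in CONLC, a log2 fold change of 0.55 (SE 0.32, 95% interval -0.10 to 1.2, unadjusted p = 0.0948 and adjusted p = 0.949 in edgeR). Under high CFP the corresponding value, GLYHC against CONHC, was 0.01 (SE 0.31, 95% interval -0.62 to 0.65). The difference between these contrasts, the interaction of GLY with CFP, was -0.54 (SE 0.45, edgeR adjusted p = 0.999).

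SPP1 encodes osteopontin, a secreted matrix phosphoprotein made by cholangiocytes and by activated macrophages. Its normalised read counts ran from 15.8 to 108 in CONHC (median 63.3), from 13.6 to 148 in CONLC (median 47.8), from 42.6 to 129 in GLYHC (median 64.9) and from 13.8 to 84.7 in GLYLC (median 31.1). All 8 GLYHC cows lay above the GLYLC median and 3 of them above the highest GLYLC cow. GLYHC against GLYLC gave a log2 fold change of 0.83 (SE 0.49, 95% interval -0.17 to 1.84, unadjusted p = 0.101 and adjusted p = 0.501 in edgeR). In CONLC, SPP1 fell into a low set of 4 cows at or below 25.4 and a high set of 4 cows at or above 70.1 normalised reads. CONHC against CONLC gave -0.11 (SE 0.47, 95% interval -1.07 to 0.84). GLYLC against CONLC gave -0.80 (SE 0.49, 95% interval -1.81 to 0.20, unadjusted p = 0.113 and adjusted p = 0.953 in edgeR).

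SPP1 is also made by macrophages, so the macrophage list is given beside it. The summed level of 11 macrophage genes had medians of 28600 normalised reads in CONHC, 17130 in CONLC, 28980 in GLYHC and 18450 in GLYLC, with ranges of 11030 to 38440, 14510 to 29550, 14310 to 31490 and 13300 to 25850. For GLYHC versus GLYLC, 0 of these 11 genes were called. At an unadjusted p under 0.05 in edgeR, 5 passed, all higher in GLYHC, beside 5.06% of all genes higher. A log2 fold change above 0 was seen in 10 of 11, and in 48.6% of all genes. For HC against LC, 2 of 11 were called, both higher in HC, beside 0.679% of all genes called higher. At an unadjusted p under 0.05, 8 of 11 passed, all higher, beside 5.88% of all genes higher. Without cow 912, and likewise without cow 103, 0 macrophage genes were called by edgeR and 8 had an unadjusted p under 0.05. Over all 31 fits without 1 cow the count of macrophage genes called was 0 to 4, with 0 in 19 of them. CD68, a lysosomal protein of macrophages, had a mean of 1040 ± 348 normalised reads in GLYHC and 649 ± 255 in GLYLC (SD). The part of macrophages in the SPP1 values was not tested.

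ANXA4 encodes annexin A4, a calcium-dependent membrane-binding protein of secretory epithelia. Its normalised read counts ran from 6495 to 9401 in CONHC (median 8103), from 7187 to 10440 in CONLC (median 8805), from 7402 to 10680 in GLYHC (median 8341) and from 6117 to 10580 in GLYLC (median 8690). Cow 912 of GLYLC was the lowest of all cows. Over all cows the median was 8491 for ANXA4, against 50.2 (SPP1) to 350 (EPCAM) for the other 6 genes. Spearman's rho of ANXA4 with these genes over the cows ran from -0.223 (KRT19) to 0.0403 (EPCAM). Which liver cells supplied the ANXA4 reads was not tested, so its values cannot be taken as specific to bile ducts here. The narrow spread gave narrow intervals, and HC against LC was -0.04 on the log2 scale (SE 0.07, 95% interval -0.18 to 0.11), while GLY against CON was 0.03 (SE 0.07, 95% interval -0.11 to 0.18). For the other 6 genes the intervals of the same 2 contrasts reached as far as -1.10 (KRT19, HC against LC) and 1.05 (SPP1, HC against LC) on the log2 scale, so that moderate differences between groups were not detectable with these numbers of cows.

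**Figure D2:**
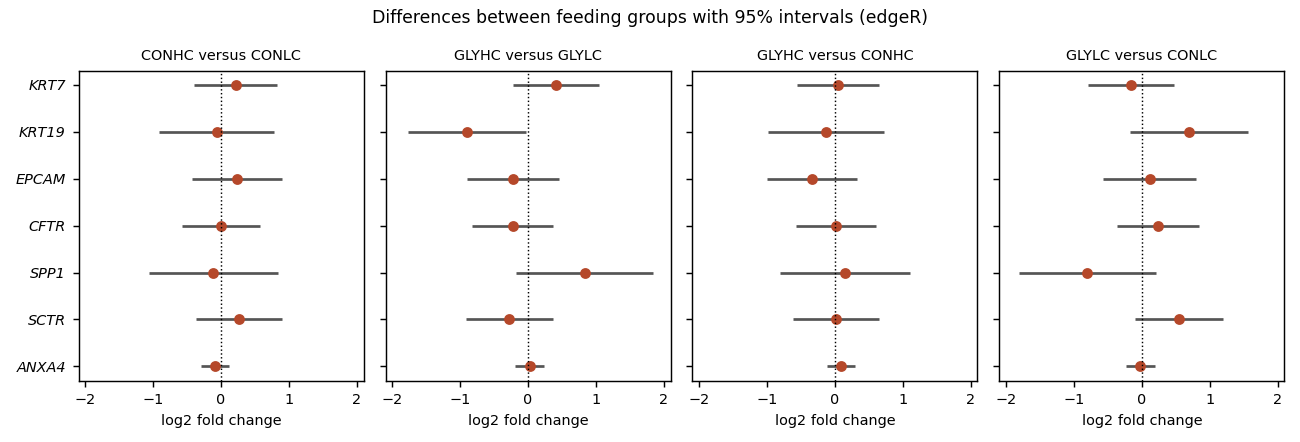
Log2 fold changes (points) with 95% intervals (lines) of the 7 bile duct genes in the 4 pairwise comparisons, from edgeR on all 31 cows. All intervals include 0 except KRT19 in GLYHC versus GLYLC, whose adjusted p of 0.379 missed the threshold, and the ANXA4 intervals are the narrowest.

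The wider programme of the bile duct was described with 42 further genes in 5 lists (keratins and junctions, transcription factors, transport, cilium and polycystic kidney genes, Notch pathway), of which 39 were tested. For GLYHC versus GLYLC, 1 of 39 was called, beside 0.201% of all genes. In edgeR, 6 of 39 had an unadjusted p under 0.05 (4 higher and 2 lower in GLYHC). So had 12.5% of all genes (5.06% higher and 7.45% lower). The median log2 fold change of the 39 was 0.06, and that of all genes was -0.01. In CONHC versus CONLC, GLYHC versus CONHC and GLYLC versus CONLC, 0 of 39 were called. In the same order, 1, 2 and 1 had an unadjusted p under 0.05 in edgeR, beside 5.96%, 2.92% and 5.65% of all genes. The 2 genes with the highest mean level of each list were KRT18 and KRT8, FOXA2 and ONECUT2, ANO1 and ATP1B1, PKD2 and PKHD1, and HEYL and NOTCH2. None of these 10 was called in any comparison. KRT18 and KRT8, the keratin pair of simple epithelia that hepatocytes also make, had log2 fold changes of -0.26 (SE 0.15) and -0.06 (SE 0.15) for HC against LC.

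The called gene was PROM1, which encodes the membrane glycoprotein CD133 of progenitor and ductal cells. It had very few reads, with 2 raw reads over the 8 CONHC cows, 11 over the 8 CONLC cows, 1 over the 8 GLYHC cows and 24 over the 7 GLYLC cows. All 7 GLYLC cows had at least 1 read, and 7 of 8 GLYHC cows had 0. Cow 912 alone held 15 of the 24 reads. The 38 reads over all cows reached the filter of 20 only with those of GLYLC. PROM1 was thus tested only through the group where it was highest, which limits what its calls can show. The fitted log2 fold change for GLYHC against GLYLC was -3.66 (SE 0.86, edgeR adjusted p = 0.0994) and that for HC against LC was -2.77 (SE 0.63, edgeR adjusted p = 0.0428). Per read assigned to genes, PROM1 was 25.9 times as frequent in GLYLC as in GLYHC (exact 95% interval 4.22 to 1060, counting error only), and 11.4 times without cow 912 (1.58 to 498). In the control cows the ratio of CONLC to CONHC was 4.63 (1.01 to 43.0). Without cow 912 the edgeR adjusted p for GLYHC against GLYLC was 0.413. That call was lost in 18 of the 31 fits that left out 1 cow, among them all 8 that left out a GLYHC cow, while the call for HC against LC was kept in all 31 (edgeR adjusted p 0.0252 to 0.0893, the highest without cow 912).

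The spread between biopsies was described by the SD of log2 CPM within groups and by the biological coefficient of variation (BCV), which is edgeR's estimate of the relative spread between cows beyond counting error. The within-group SD was 0.62 for KRT7, 0.86 for KRT19, 0.68 for EPCAM, 0.61 for CFTR, 1.03 for SPP1, 0.65 for SCTR and 0.20 for ANXA4, and the median over all genes tested was 0.34. The BCV was 40.2% for KRT7, 56.4% for KRT19, 44.3% for EPCAM, 39.2% for CFTR, 63.7% for SPP1, 41.7% for SCTR and 15.3% for ANXA4. Of the 1000 genes nearest in level, only 17 had a larger BCV than EPCAM and 22 a larger one than KRT19. The corresponding numbers were 52 for SPP1, 60 for CFTR, 122 for SCTR, 134 for KRT7 and 657 for ANXA4, so that ANXA4 varied less than most genes of its level. Counting error at the median count was 1.05% for ANXA4, 5.04% for EPCAM and between 9.41% and 13.6% for the other 5 genes, well below the spread between cows in each case.

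Only a small part of this spread lay between the feeding groups. The share of the variance of log2 CPM over cows between the 4 groups ran from 1.89% (CFTR) to 13.6% (KRT19). Such a share lies above 0 even without an effect of the feed. The edgeR test of any difference among the 4 groups gave an unadjusted p of 0.153 or more for the 7 genes. The ratio of the highest to the lowest cow over the whole series was 11.5 for KRT19, 10.8 for SPP1, 7.57 for EPCAM, 5.73 for CFTR, 4.99 for KRT7, 4.32 for SCTR and 1.75 for ANXA4.

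**Figure D3:**
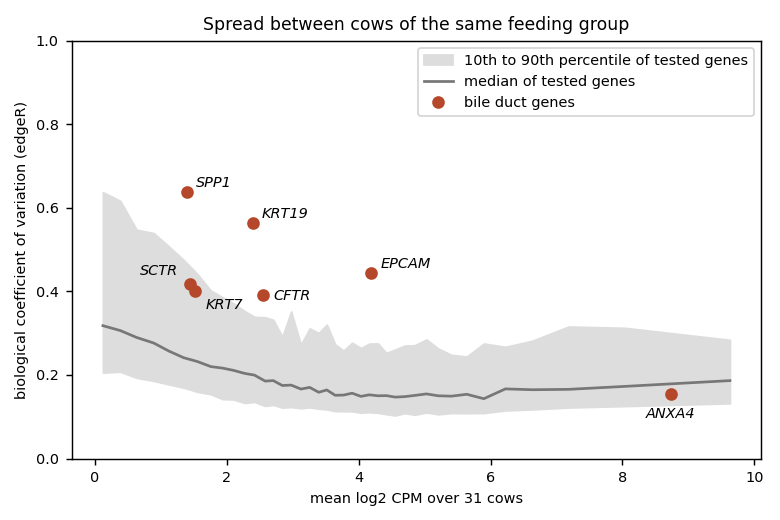
Biological coefficient of variation (vertical axis) against mean log2 CPM over 31 cows (horizontal axis), with the 7 bile duct genes as points, and the median and the 10th to 90th percentile of the tested genes with a mean log2 CPM above 0 as line and band. KRT19, EPCAM, CFTR and SPP1 lie above the band, KRT7 and SCTR near its upper edge, and ANXA4 inside it.

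Whether the genes went up and down together over the cows was examined for all 21 pairs by permutation over the 31 cows, with Benjamini-Hochberg adjustment over the pairs. Exactly 5 pairs passed by both Pearson's r and Spearman's rho, and all 5 were positive. KRT7 with SCTR gave r = 0.704 (permutation p = 3e-05, adjusted 0.000315) and rho = 0.729 (permutation p = 1e-05, the smallest that 100000 permutations can give, adjusted 0.00021). CFTR with SCTR gave r = 0.712 (permutation p = 1e-05, adjusted 0.00021) and rho = 0.69 (permutation p = 4e-05, adjusted 0.00042). KRT7 with CFTR gave r = 0.535 (permutation p = 0.00185, adjusted 0.0129) and rho = 0.575 (permutation p = 0.00076, adjusted 0.00532). The keratin KRT7, the secretin receptor and the chloride channel thus formed a trio in which every pair passed.

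The remaining 2 pairs were weaker. KRT7 with SPP1 gave r = 0.513 (permutation p = 0.00332, adjusted 0.0174) and rho = 0.509 (permutation p = 0.00381, adjusted 0.02). KRT19 with SCTR gave r = 0.476 (permutation p = 0.00705, adjusted 0.0296) and rho = 0.479 (permutation p = 0.00686, adjusted 0.0288). Without the 2 cows farthest from the median of the first gene, r of the 5 pairs was 0.733, 0.637, 0.635, 0.422 and 0.381 in the order given. With values centred on the group means, r was 0.805, 0.715, 0.59, 0.467 and 0.443, so that the relations were also seen with the group means removed. In single groups, r of KRT7 with SCTR ran from 0.51 in GLYLC to 0.947 in CONHC, and r of CFTR with SCTR from 0.244 in CONHC to 0.896 in CONLC. That of KRT19 with SCTR ran from 0.0332 in GLYHC to 0.762 in CONLC. For KRT7 with CFTR it ran from 0.214 in CONHC to 0.803 in CONLC, and for KRT7 with SPP1 from 0.167 in GLYHC to 0.845 in CONHC.

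The pair of ductal keratins, KRT7 and KRT19, did not pass (r = 0.331, permutation p = 0.0698, adjusted 0.243, rho = 0.309). EPCAM and ANXA4 had no pair that passed, and their median rho with the other members was -0.07 and -0.05. Among 11848 genes with a mean of at least 1 CPM, SCTR had rank 3 by rho with KRT7, and CFTR had rank 52. With CFTR, SCTR had rank 19 and KRT7 rank 81. KRT7 had rank 812 with KRT19, and EPCAM had rank 8400 with KRT7.

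**Figure D4:**
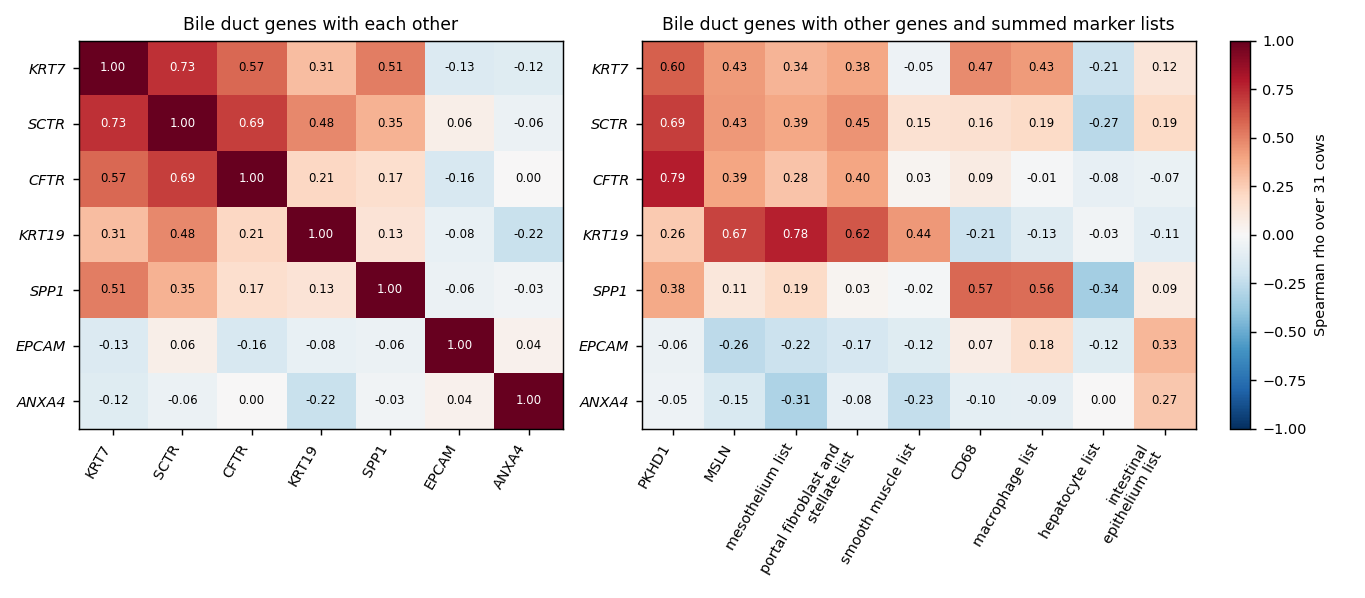
Spearman rho over 31 cows between the 7 bile duct genes (left) and between these genes and selected other genes or summed marker lists (right), with red for positive and blue for negative values. KRT7, SCTR and CFTR form a block with rho between 0.57 and 0.73 and share a high rho with PKHD1, KRT19 has its highest values with the mesothelium list, and the rows of EPCAM and ANXA4 are pale.

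The trio also shared its pattern with some genes of the bile duct lists, while others of these lists went the other way. PKHD1, which encodes the cilium-associated fibrocystin, had a rho of 0.785 with CFTR, 0.695 with SCTR and 0.596 with KRT7 over the 31 cows. Of 31 other bile duct genes with a mean of at least 1 CPM, 8 had a rho above 0.5 with SCTR, 6 with KRT7 and 5 with CFTR. Over all 11842 genes that are no members, 0.98%, 1.18% and 1.86% did. The median rho of the 31 genes was low, at 0.107, 0.148 and 0.138, against -0.0181, -0.0274 and -0.0155 over all genes. Among the negative values, ANO1 had -0.381 with SCTR and -0.347 with KRT7. ONECUT2 had -0.407 with KRT7, and with CFTR CLDN7 had -0.387 and SLC4A2 -0.35. Those with SCTR included, named after their values were seen, SLC12A2 at 0.785, CD24 at 0.729, EHF at 0.715, PKHD1 at 0.695, SLC5A1 at 0.638, KLF5 at 0.514 and CA2 at 0.508. SLC12A2 is the chloride importer of secretory epithelia, CA2 the carbonic anhydrase that supplies bicarbonate, and SLC5A1 the sodium-glucose cotransporter. For EPCAM and for ANXA4 the count was 0 of 31, against 0.0929% and 2.01% of all genes, for KRT19 it was 1 of 31 (AQP1, rho 0.522, against 0.887%), and for SPP1 2 of 31 (CLDN4 and SLC5A1, against 2.15%).

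KRT19 had its highest values with lists of other cell types. Its rho over 31 cows was 0.775 with the summed mesothelium list, 0.674 with MSLN, the mesothelial surface protein mesothelin, 0.619 with the portal fibroblast and stellate list and 0.437 with the smooth muscle list. Without cow 912 these values were 0.782, 0.698, 0.612 and 0.389. The trio shared part of this pattern. With the mesothelium list rho was 0.341 for KRT7, 0.386 for SCTR and 0.285 for CFTR. In the same order it was 0.384, 0.452 and 0.397 with the portal fibroblast and stellate list. With the smooth muscle list it was -0.0492, 0.15 and 0.0262. MSLN had between 21.0 and 172 normalised reads and was detected in every cow, and UPK3B had between 4.38 and 65.6, while the mesothelial transcription factor WT1 and the gene LRRN4 were at 0 in 12 of 31 cows each. The cow with the highest KRT19, GLYLC cow 544, also had the highest mesothelium sum at 283. SPP1 had a rho of 0.556 with the macrophage list and 0.572 with CD68, and 0.528 and 0.538 without cow 912. In the trio, rho with the macrophage list was 0.428 for KRT7, 0.188 for SCTR and -0.00806 for CFTR. These relations describe 31 libraries of differing depth, and the part of mesothelium and macrophages in the values was not tested.

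**Figure D5:**
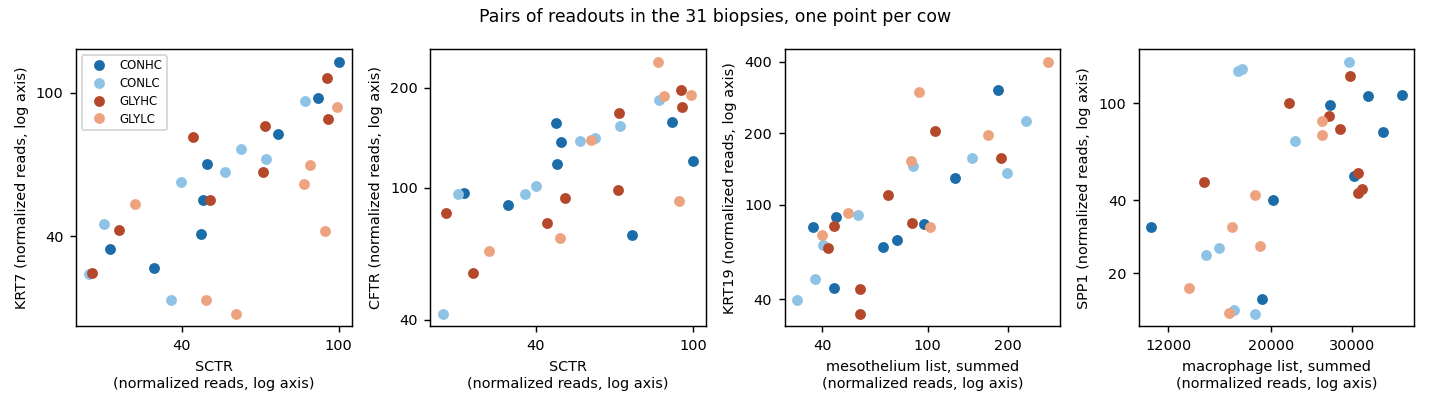
Normalised reads in the 31 biopsies on log axes, with 1 point per cow coloured by feeding group, for KRT7 and CFTR against SCTR, KRT19 against the summed mesothelium list and SPP1 against the summed macrophage list. All 4 panels rise from left to right, with Spearman rho of 0.73, 0.69, 0.78 and 0.56. The colours are mixed in the panels of SCTR and of the mesothelium list. Along the macrophage list most HC cows lie to the right. Its medians were 28600 in CONHC and 28980 in GLYHC, against 17130 in CONLC and 18450 in GLYLC.

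The genes most like each member over the 31 cows, by rho among genes with a mean of at least 1 CPM, differed between the members. For CFTR they included ATP6V1B1 at 0.873 and PDGFD at 0.825, and the first of these encodes a subunit of the proton pump. For SCTR they were FOLH1B at 0.844, the gene ENSBTAG00000022715, which has no symbol in the table, at 0.838 and NDRG1 at 0.837. The same ENSBTAG00000022715 led the list of KRT7 at 0.78, which also held ERICH5 at 0.725. For KRT19 they were the matrix protein gene EFEMP1 at 0.809, ITGA7 at 0.80 and ADAM33 at 0.779. For SPP1 they were ADPRHL1 at 0.761, ACOT9 at 0.74 and CNN3 at 0.737. For ANXA4 they were the flavin monooxygenase FMO5 at 0.778, PI4K2B at 0.737 and SLC35E3 at 0.725. EPCAM had the lowest leading values, with CDK7 at 0.605, RAD1 at 0.579 and OSMR at 0.577.

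Seen by cow, a few biopsies ranked high for several of the genes, where every gene has 8 of the 31 cows among its 8 highest. Cows 131 and 154 of GLYHC and cow 166 of CONLC each had 5 of the 7 genes among the 8 highest cows. In each of these cows KRT7, SCTR and CFTR, which went together over the cows, were among the 5. ANXA4 was among them in cows 131 and 154. Whether such counts exceed chance was not tested. Cow 259 of CONLC had 5 of the 7 genes among the 8 lowest. Cow 260 of CONLC combined the highest EPCAM and SPP1 (1011 and 148 normalised reads) with the lowest CFTR and SCTR (41.7 and 23.3). Cow 912, which held the intestinal transcripts, had 298 normalised reads of KRT19, 576 of EPCAM and 92.3 of SCTR, and its KRT7 of 41.4 lay below the group median.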

How the data were processed

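Liver RNA of 31 cows was sequenced from stranded mRNA libraries. The authors trimmed reads with Trim Galore after FastQC, aligned them to the UMD3.1 genome (HISAT2 2.1.0) and summed the reads with a unique alignment over each gene (HTSeq 0.8.0, strand setting not given in the sources used here). They deposited the raw read counts used here, and a normalised table that was not used. The 15916 genes that reached 20 reads in total were tested in 1 model of the 4 groups, and in an additive model of treatment and CFP, with edgeR 4.0.16 (TMM, quasi-likelihood F test, R 4.3.3), called at an unadjusted p under 0.05 and an adjusted p under 0.1. Normalised reads are counts divided by the TMM-scaled library size, and log2 CPM used a prior count of 2. Correlations used 100000 two-sided permutations (scipy 1.17.1). The scripts were tested on simulated data. Alternatives were other normalisations and filters, a robust fit, only the compared groups, DESeq2 1.42.0, a prior count of 0.5 and each cow left out; relations to marker lists without cow 912 and list counts without 1 cow were added after seeing the data. Members and lists were chosen with earlier results of these data known. Named genes were the members, called genes of the bile duct lists, the 2 most abundant of each list and the 3 genes most similar to each member; some are not reported here. P-values measure the spread between cows, with 1 biopsy per cow.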

Additional observations from a re-analysis of the deposited data

Results flagged for a closer look

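KRT19 in CONHC was singled out because its highest cow lay far from the others. Cow 133 had 305 normalised reads, the nearest cow had 129.5, and the gap was 0.674 of the range of the group, above Dixon's critical value of 0.526 for 8 cows. It was the only one of the 28 combinations of gene and group with such a cow. Chance alone flags about 1 in 20 where values are normally distributed, and linear reads were used here. On log2 CPM cow 133 was at 3.949, the next cow at 2.724 and the lowest at 1.22. On that scale the gap stays below the critical value. Cow 133 also had the highest KRT7 and SCTR of all cows, at 121.5 and 100.3 normalised reads, and the highest mesothelium sum of CONHC, at 184. Without it, the log2 fold change of KRT19 in CONHC against CONLC was -0.50 in place of -0.07, and neither was called.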

How the results depend on the processing

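No paired analysis was possible because the animal numbers are not shared between groups. Of the 7 bile duct genes, 0 were called in each of the 8 comparisons under every further setting (56 counts) and without any single cow (248 counts). The CFTR log2 fold change of CONHC against CONLC (0.000324) was near 0 and changed sign, at -0.00473 with upper-quartile normalisation, -0.00341 with filterByExpr, -0.0021 with DESeq2 on all cows and -0.000342 with DESeq2 on 2 groups. PROM1 was the 1 other bile duct gene called. For GLYHC against GLYLC the count was 0 with no filter, filterByExpr, the robust fit, edgeR on 2 groups and DESeq2 on all cows, for HC against LC 0 with filterByExpr, and for any difference 0 with filterByExpr and DESeq2 on all cows. Without single cows these counts were 0 to 1, 1 to 2 and 0 to 2. The cause was not tested.

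Log2 fold changes whose sign changed without 1 cow ranged as follows. CONHC against CONLC ran from -0.50 to 0.15 for KRT19, -0.13 to 0.12 for CFTR and -0.27 to 0.14 for SPP1. GLYHC against CONHC ran from -0.10 to 0.24 for KRT7, -0.39 to 0.30 for KRT19, -0.13 to 0.11 for CFTR, -0.032 to 0.28 for SPP1 and -0.13 to 0.18 for SCTR. GLYLC against CONLC ran from -0.37 to 0.0042 for KRT7, -0.065 to 0.51 for EPCAM and -0.083 to 0.047 for ANXA4. GLYHC against GLYLC ran from -0.047 to 0.080 for ANXA4. HC against LC ran from -0.059 to 0.19 for EPCAM and -0.095 to 0.063 for SCTR. GLY against CON ran from -0.14 to 0.039 for KRT7 and -0.21 to 0.057 for EPCAM.

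Of the pairs of members, 5 to 6 passed without single cows, and 5 to 7 with a prior count of 0.5 or centred values, where KRT7 with KRT19 reached r = 0.472. Over all genes, the count called for GLYHC against GLYLC was 32, but 0 to 143 in further settings, and that for HC against LC was 231, but 134 to 434. For CONHC against CONLC the count was 0, but up to 81, and for GLYHC against CONHC it was 0, but up to 5. Only uniquely mapped reads were counted, which can lower keratin genes with near-identical copies.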

Other observations

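CLDN4 is a tight junction protein of ducts and other epithelia, and GGT1 is the enzyme whose serum activity marks bile duct stress. Both missed the threshold here and are named after their values were seen. The paper, which used DESeq2, counts CLDN4 among its CFP-responsive genes. For HC against LC, 5 of the 39 other bile duct genes had an unadjusted p under 0.05 in edgeR, beside 13.7% of all genes. CLDN4 had a log2 fold change of 1.11 for HC against LC (SE 0.33, edgeR adjusted p = 0.119) and 1.48 for GLYHC against GLYLC (SE 0.48, edgeR adjusted p = 0.21). GGT1 had 0.26 for HC against LC (SE 0.11, edgeR adjusted p = 0.25) and 0.22 for GLY against CON (SE 0.11, edgeR adjusted p = 1). ANXA4 had a rho of -0.70 over 31 cows with PKD1, the polycystin gene (rank 11838 of 11842 genes).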
